A study of Mus musculus with 18 samples.

Results

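Il7r, Tcf7, Lef1, Satb1, Bach2, Klf2, S1pr1, Igfbp4 and Dapl1 are described here as genes of the naive and resting T cell. They are 9 of the 26665 genes listed for each library and were chosen by name, from what is known of naive T cells and with earlier results of these data in view. All 9 were found, each reached an FPKM of 1 in all 18 libraries, and all 9 were among the 12265 genes tested. FPKM is the number of fragments per kilobase of transcript scaled to the mapped fragments of the library, so levels of different genes can be set side by side per length.

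The libraries came from spleen T cells of C57BL/6 mice that all carried the Foxp3EGFP reporter, which makes cells that express Foxp3 fluoresce. Wild-type mice carried the reporter alone, and CD28-deficient mice were labelled CD28-/-Foxp3EGFP. CD28 binds CD80 and CD86 on antigen-presenting cells and supplies the costimulus that full T cell activation needs. From each genotype 3 populations were sorted, with 3 libraries each: Nrp1+ regulatory T cells (tTreg, which the study takes as thymic in origin), regulatory T cells without Nrp1 (pTreg, taken as peripheral) and conventional T cells (Tconv). The subsets are thus set apart by 1 surface protein. No Cre driver is named, and the age of the mice and whether a library is 1 animal or a pool are not given in the sources used here, so p-values measure only the spread between these libraries, which may be technical.

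Naive T cells circulate through blood and lymphoid organs and are kept alive by IL-7, whose receptor carries the alpha chain encoded by Il7r. Tcf7 (TCF-1) and Lef1 encode related DNA-binding factors of the T lineage, Satb1 a chromatin organizer and Bach2 a repressor of effector genes. Klf2 encodes a factor that drives transcription of S1pr1, the receptor through which T cells follow sphingosine 1-phosphate out of lymphoid tissue. Igfbp4, a secreted binder of insulin-like growth factors, and Dapl1, a death-associated protein-like gene, are abundant transcripts of naive T cells. When T cells are activated most of these genes are known to go down, and many Treg have an activated profile.

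The promoters of 3 members are printed because these genes differed most among the groups: Dapl1 and Igfbp4 between tTreg and Tconv, and Il7r, which ran against Igfbp4 between genotypes. RefSeq promoter windows on build GRCm38.p6, from 250 bases before to 50 bases after an annotated start, were found for 8 of the 9 members, in 16 windows. S1pr1 had no entry. Capitals mark a match to a motif searched on both strands. The motifs were TGTTTAC and TGTTTAT (FOXO), CTTTGAA and CTTTGAT (TCF/LEF), AGGAAGT and CCGGAAG (ETS), GGGTGTGG and GGGCGTGG (KLF) and TGAGTCA (AP-1 and BACH). The Il7r window is chr15:9529827-9530126, minus strand, the Igfbp4 window chr11:99040994-99041293, plus strand, and the Dapl1 window chr2:59484403-59484702, plus strand. Each is written 5′ to 3′ on the strand of its gene.
Il7r: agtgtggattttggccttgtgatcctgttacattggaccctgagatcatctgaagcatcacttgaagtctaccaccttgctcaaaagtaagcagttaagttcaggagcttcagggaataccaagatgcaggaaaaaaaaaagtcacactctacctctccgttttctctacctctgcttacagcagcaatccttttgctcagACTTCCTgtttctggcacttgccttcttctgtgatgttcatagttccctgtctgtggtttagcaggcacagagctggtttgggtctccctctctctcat
Igfbp4: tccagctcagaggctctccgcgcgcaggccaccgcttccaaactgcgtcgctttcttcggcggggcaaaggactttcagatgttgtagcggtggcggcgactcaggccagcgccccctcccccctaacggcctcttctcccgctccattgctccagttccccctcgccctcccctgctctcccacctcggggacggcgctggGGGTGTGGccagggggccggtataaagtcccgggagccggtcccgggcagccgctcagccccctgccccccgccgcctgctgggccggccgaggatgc
Dapl1: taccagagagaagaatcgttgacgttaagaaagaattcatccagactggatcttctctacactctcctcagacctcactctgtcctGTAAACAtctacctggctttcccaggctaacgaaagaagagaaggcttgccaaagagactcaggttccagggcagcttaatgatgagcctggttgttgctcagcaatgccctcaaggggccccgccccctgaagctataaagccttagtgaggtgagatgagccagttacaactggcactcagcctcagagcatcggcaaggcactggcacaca

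The capitals in Il7r are AGGAAGT read on the other strand, 49 bases before the start, a motif held by 9.27% of all 32544 windows. Igfbp4 has GGGTGTGG 48 bases before the start, found in 3.57% of windows, and Dapl1 has TGTTTAC on the other strand 164 bases before the start, found in 3.66%. Each share is that of a single motif. The share of windows with a match to any of the motifs searched is larger and was not computed. A match describes letters only and is no evidence of binding. The windows differed in composition. Igfbp4 was 71.3% G or C with 27 CpG dinucleotides, Dapl1 51% with 5, and Il7r 45.7% with 1, against a median of 53% G or C over all windows. On GRCm38 in GENCODE, the Il7r gene body is annotated on chromosome 15 from 9505788 to 9530176, that of Igfbp4 on chromosome 11 from 99041244 to 99054392 and that of Dapl1 on chromosome 2 from 59484653 to 59505020, all 3 protein coding. The Il7r window lies wholly inside this gene body, so the RefSeq start used for it lies downstream of the GENCODE start.

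Summed over all listed genes, FPKM per library ran from 514726 to 994139, and 10703 to 11741 genes were at 1 or more. The depth in reads is unknown. Foxp3 was at 56.0 to 137 FPKM in the 12 Treg libraries and at 0.0670 to 0.285 in Tconv other than CD28-deficient replicate 3, and Nrp1 was at 55.6 to 83.5 in tTreg and 0.449 to 0.911 in pTreg. The mean of Cd28, the gene the genotype is named for, was 76.1 ± 4.68 in CD28-deficient against 60.0 ± 2.75 FPKM in wild-type tTreg, 76.0 ± 19.0 against 48.1 ± 14.8 in pTreg and 88.8 ± 25.8 against 61.3 ± 25.2 in Tconv (SD, n = 3 each). These libraries thus showed no loss of Cd28 transcript. The deleted part of the gene is not given in the sources used here, so a value over the whole gene does not check the genotype, and genotypes and directions are given as labelled. The 6 CD4 T cell markers summed to between 1265 and 2608 FPKM. The sums of 6 B cell markers (0.963 to 12.4), 2 CD8 T cell markers (6.10 to 12.9), 5 NK cell markers (1.12 to 29.5) and 7 myeloid markers (31.4 to 71.3) were far lower, and 6 erythroid and platelet markers summed to 0 to 43.5, with Pf4 at 0 in all Tconv libraries. The NK sum was 12.1 to 29.5 in Tconv and 1.12 to 5.45 in Treg libraries, and the B cell sum was 10.7 to 12.4 in wild-type tTreg and 0.963 to 3.22 in Tconv. Their part in the results below was not tested.

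Some libraries stood apart. The main differences that involve CD28-deficient tTreg replicate 3 or wild-type pTreg replicate 1 are given with and without both. CD28-deficient tTreg replicate 3 held transcripts of Tconv, and CD28-deficient Tconv replicate 3 held transcripts of Treg. In the former, Pdlim4, a gene nearly silent in Treg, was at 8.14 FPKM against a mean of 0.0798 in replicates 1 and 2. In the latter, Foxp3 was at 21.1 FPKM against 0.0670 and 0.205 in replicates 1 and 2. On a scale from the mean of replicates 1 and 2 of CD28-deficient tTreg (0%) to the mean of replicates 1 and 2 of CD28-deficient Tconv (100%), tTreg replicate 3 lay at 28.7% for Lef1, 27.3% for Tcf7, 26.0% for Dapl1, 24.6% for Satb1, 22.5% for Bach2 and 21.6% for Igfbp4. The Tconv markers Ggt5, Slc16a5 and Pdlim4 lay at 28.2%, 20.7% and 16.1%, and Foxp3 and Nrp1 at 14.6% and 14.7%. The members whose levels differ least between these populations lay lower, S1pr1 at 16.4%, Il7r at 8.66% and Klf2 at 6.87%.

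**Figure D1:**
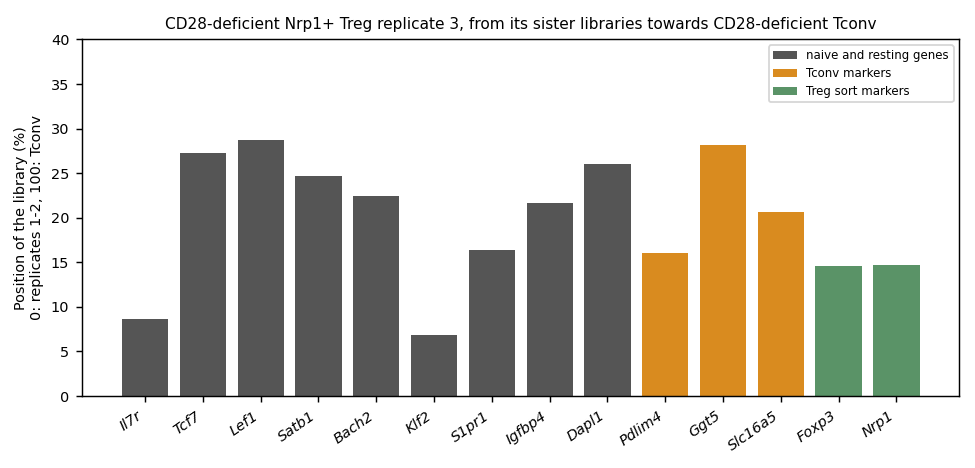
Position of CD28-deficient tTreg replicate 3 for each gene, as a percentage of the way from the mean FPKM of replicates 1 and 2 of its own group (0) to that of CD28-deficient Tconv replicates 1 and 2 (100). Grey bars are the naive and resting genes, orange bars Tconv markers and green bars the sort markers of Treg. Lef1, Tcf7 and Dapl1 reach 26.0% to 28.7%, in the same range as the Tconv marker Ggt5 at 28.2%, while Il7r and Klf2 stay under 10%.

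In Tconv replicate 3 the same scale, run the other way, gave 30.0% for Dapl1, 23.4% for Bach2, 21.7% for Tcf7, 20.4% for Igfbp4, 15.5% for Lef1 and 14.7% for Satb1, beside 20.4% for Foxp3 and 17.9% for Nrp1. S1pr1 was at 4.07%, Klf2 at 32.9% and Il7r at 71.6%, and the Tconv markers Pdlim4, Slc16a5 and Ggt5 were at 29.4%, 5.92% and -1.91%. For Lef1, Satb1, Bach2, S1pr1, Slc16a5 and Ggt5, however, Tconv replicate 3 lay between replicates 1 and 2. Its Il7r value of 145 FPKM was close to the 148 of replicate 1. The positions of these genes thus lie within or near the spread of the replicates that set the start of the scale. Wild-type pTreg replicate 1 was low for most genes. There the median tested gene was at 54.2% of the mean of replicates 2 and 3, and 8 of the 9 members were at 34.0% (Il7r) to 57.4% (Dapl1), while Klf2 was at 105%. Wild-type Tconv replicate 1 was mixed, with a median gene at 99.3%, Bach2 at 43.9% and Satb1 at 60.5% of the other replicates but Klf2 at 178% and Dapl1 at 177%. The microRNA gene Mir5105 alone made up 20.8% of the FPKM sum in wild-type pTreg replicate 1, 19.4% in wild-type Tconv replicate 1 and 26.9% in CD28-deficient Tconv replicate 3, against 2.98% to 11.6% in the other libraries, and its part in these values was not tested.

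Tcf7 and Klf2 were among the most abundant transcripts, with percentiles among listed genes from 98.8 to 99.5 and from 98.03 to 99.2 over the libraries. Dapl1 ranged most, from percentile 57.9 to percentile 97.4. With all libraries, the highest group mean was 22.1 times the lowest for Dapl1, 10.1 times for Igfbp4, 4.94 times for Il7r, 3.82 for Satb1, 3.23 for Lef1, 2.94 for Tcf7, 1.92 for Klf2, 1.71 for S1pr1 and 1.59 for Bach2. For every member the highest group was a Tconv group. The lowest mean was that of wild-type tTreg for Tcf7, Lef1, Satb1, Bach2, Klf2 and Dapl1, and for each of these its libraries overlapped with those of the next group. Il7r and S1pr1 were lowest in wild-type pTreg and Igfbp4 in CD28-deficient tTreg. Only Il7r stood clear there, its highest wild-type pTreg value of 48.6 FPKM lying below the 49.9 of the lowest wild-type tTreg library. Without wild-type pTreg replicate 1 the mean of that group was 45.1 for Il7r, still the lowest. For S1pr1 it was 92.8, above the 85.4 of wild-type tTreg. Without CD28-deficient tTreg replicate 3 the mean of its group fell below that of wild-type tTreg for Lef1 (39.2 against 43.7), Satb1 (31.7 against 37.3) and Bach2 (11.5 against 12.1).

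**Figure D2:**
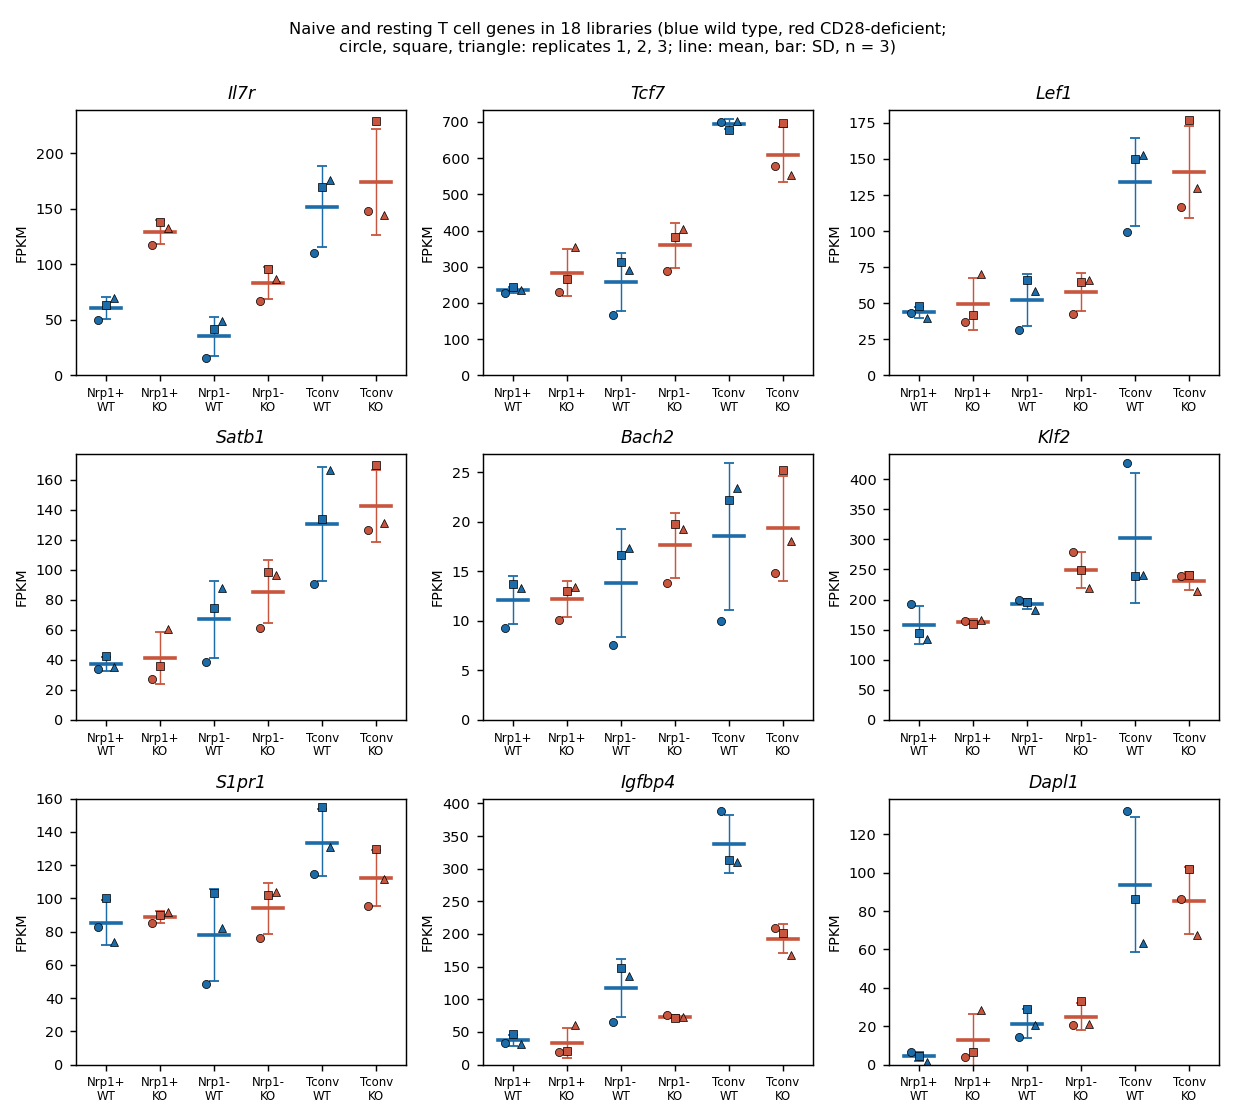
FPKM of the 9 genes in each of the 18 libraries (points), with the mean (line) and SD (bar) of each group of 3, for wild-type (WT) and CD28-deficient (KO) tTreg (Nrp1+), pTreg (Nrp1-) and Tconv, each gene on its own linear axis. Tconv libraries are the highest for Tcf7, Lef1, Igfbp4 and Dapl1, and Il7r separates the genotypes in tTreg and pTreg.

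In wild-type cells the genes fell into 3 kinds by how far tTreg lay below Tconv. Dapl1 and Igfbp4 lay furthest below. Dapl1 was at 132, 86.3 and 63.2 FPKM in wild-type Tconv and at 6.55, 4.66 and 1.5 in wild-type tTreg. Igfbp4 was at 388, 314 and 309.8 in wild-type Tconv and at 33.0, 46.8 and 32.1 in tTreg. No library of either population overlapped the other for these genes, and tTreg held 4.51% of the Tconv mean for Dapl1 and 11.1% for Igfbp4. Differences are given on the scale of log2(FPKM + 1), with a positive sign where the first-named group is higher, and that scale understates the change of a gene as low as Dapl1 in tTreg. By limma across all tested genes, with Benjamini-Hochberg adjustment, Dapl1 was lower by a difference of -4.26 ± 0.53 (SE, adjusted p = 3.07e-05) and Igfbp4 by -3.16 ± 0.35 (adjusted p = 1.11e-05). In bulk libraries, fewer cells of a type and less RNA per cell cannot be told apart.

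The factors of T cell identity came next. Tcf7 was at 701, 677 and 702 FPKM in wild-type Tconv and at 228, 245 and 235 in tTreg. Lef1 was at 99.1, 150.0 and 153 in Tconv and at 43.1, 47.9 and 40.1 in tTreg, and Satb1 at 90.8, 134 and 167 in Tconv and at 33.9, 42.6 and 35.5 in tTreg. Groups did not overlap for any of these. The tTreg means were 34.0%, 32.6% and 28.6% of the Tconv means. Tcf7 was lower by a difference of -1.55 ± 0.22 (adjusted p = 0.000102), Lef1 by -1.57 ± 0.29 (adjusted p = 0.00111) and Satb1 by -1.74 ± 0.32 (adjusted p = 0.00111).

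The receptors and their regulator differed less between tTreg and Tconv. Il7r was at 109.8, 169.6 and 176 FPKM in wild-type Tconv and at 49.9, 63.0 and 69.6 in tTreg, a difference of -1.29 ± 0.33 (adjusted p = 0.0137). Klf2 was at 427, 240.0 and 240.7 in Tconv and at 193, 144 and 135 in tTreg, a difference of -0.90 ± 0.20 (adjusted p = 0.00515). Neither gene had overlapping groups, and the highest Klf2 value came from Tconv replicate 1. S1pr1 was at 115, 155 and 131 in Tconv and at 82.7, 100.02 and 73.6 in tTreg, again without overlap, with a difference of -0.64 ± 0.23 that did not pass (adjusted p = 0.0913). Bach2, at 10.0, 22.2 and 23.4 in Tconv and at 9.31, 13.7 and 13.3 in tTreg, overlapped (-0.50 ± 0.33, adjusted p = 0.44). Its Tconv replicate 1 was the low one.

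In wild-type cells, then, 7 of the 9 genes were called lower in tTreg than in Tconv, where 4.26% of all tested genes were called lower, and 8 of 9 had groups that did not overlap, against 28.6% of tested genes. The median difference of the 9 genes was -1.55, beside -0.02 over all tested genes. With the replicate number of the titles as a block, S1pr1 passed as well (adjusted p = 0.0157), as it did without CD28-deficient tTreg replicate 3 and wild-type pTreg replicate 1 (adjusted p = 0.0184). Bach2 passed (-0.87, adjusted p = 0.0227) once CD28-deficient Tconv replicate 3 and wild-type Tconv replicate 1 were left out as well, and Klf2 lost its call in a fit on the 2 compared groups alone (adjusted p = 0.109). Of the 7 calls, 6 held when any 1 of the 6 libraries was left out. Il7r was lost in 3 of these fits, with an adjusted p of 0.0548 without Tconv replicate 2, 0.0604 without Tconv replicate 3 and 0.0632 without tTreg replicate 1.

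Between CD28-deficient tTreg and Tconv fewer genes were called, and the 5 that lay furthest below Tconv came in the order they had in wild type. Dapl1 was at 86.5, 102 and 67.6 FPKM in CD28-deficient Tconv and at 3.73, 6.74 and 28.4 in CD28-deficient tTreg. Igfbp4 was at 208, 202 and 167 in Tconv and at 19.2, 20.9 and 60.0 in tTreg. In both genes tTreg replicate 3 was the high one, yet it stayed below every Tconv library. In all, 5 genes were called lower, where 2.47% of all tested genes were: Dapl1 (-3.06 ± 0.53, adjusted p = 0.00062), Igfbp4 (-2.68 ± 0.35, adjusted p = 4.73e-05), Satb1 (-1.83 ± 0.32, adjusted p = 0.000693), Lef1 (-1.53 ± 0.29, adjusted p = 0.00138) and Tcf7 (-1.12 ± 0.22, adjusted p = 0.00193). All 5 calls held in each of the 6 fits with 1 library left out. Without tTreg replicate 3 and wild-type pTreg replicate 1 the differences were larger in size, at -3.82 for Dapl1, -3.19 for Igfbp4, -2.14 for Satb1, -1.80 for Lef1 and -1.29 for Tcf7, and all 5 stayed called.

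The other 4 did not pass. Klf2 differed by -0.50 ± 0.20 (adjusted p = 0.154), Il7r by -0.40 ± 0.33 (adjusted p = 0.667), S1pr1 by -0.32 ± 0.23 (adjusted p = 0.569) and Bach2 by -0.60 ± 0.33 (adjusted p = 0.362, and 0.0271 with the replicate block). After quantile normalization Klf2 (-0.55, adjusted p = 0.0173) and Bach2 (-0.75, adjusted p = 0.0184) passed. All 9 genes had groups that did not overlap, against 37.2% of tested genes, and the median difference was -1.12, beside 0.09 over all tested genes. Whether the tTreg to Tconv difference itself depends on CD28 is the same quantity as the difference of CD28 effects given further on.

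By the order of the means, pTreg lay between tTreg and Tconv in either genotype for Tcf7, Lef1, Satb1, Bach2, Igfbp4 and Dapl1. In wild-type pTreg, Il7r was the lowest of the 6 groups, at 15.3, 41.5 and 48.6 FPKM, or 23.2% of the Tconv mean. Dapl1 was at 14.3, 29.2 and 20.6, Igfbp4 at 65.9, 148 and 136, and Tcf7 at 167, 314 and 292. Replicate 1 was the lowest of the 3 for each of these, as for most genes of that library. Of the 9, 5 genes were called lower than in wild-type Tconv, where 2.44% of all tested genes were: Il7r (-2.20 ± 0.33, adjusted p = 0.000578), Tcf7 (-1.48 ± 0.22, adjusted p = 0.000597), Lef1 (-1.38 ± 0.29, adjusted p = 0.00911), Igfbp4 (-1.60 ± 0.35, adjusted p = 0.0119) and Dapl1 (-2.07 ± 0.53, adjusted p = 0.0339). Without pTreg replicate 1 alone, Igfbp4 was at -1.24 (adjusted p = 0.0508) and Dapl1 at -1.83 (adjusted p = 0.119). Without that library and CD28-deficient tTreg replicate 3, all 5 stayed called with smaller differences, at -1.70 for Il7r, -1.19 for Tcf7, -1.07 for Lef1, -1.24 for Igfbp4 (adjusted p = 0.000519) and -1.83 for Dapl1 (adjusted p = 0.022). In this comparison Il7r had the largest difference of the 9 genes with all libraries and Dapl1 without the 2.

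S1pr1 (-0.82 ± 0.23, adjusted p = 0.0554), Satb1 (-0.99 ± 0.32, adjusted p = 0.113), Klf2 (-0.59 ± 0.20, adjusted p = 0.127) and Bach2 (-0.39 ± 0.33, adjusted p = 0.547) did not pass in that comparison. Without the 2 libraries S1pr1 was at -0.52, Satb1 at -0.64, Klf2 at -0.62 and Bach2 at -0.03, and none passed. Of the 9 genes, 8 had groups that did not overlap, against 13.4% of tested genes. The members' median was -1.38, beside -0.21 over all tested genes, a shift that quantile normalization brought to -0.03. Dapl1 also lost its call when wild-type Tconv replicate 1 (adjusted p = 0.123), Tconv replicate 2 (0.0928) or pTreg replicate 3 (0.0807) was left out, and Lef1 without Tconv replicate 3 (0.0511). S1pr1 passed without pTreg replicate 2 (adjusted p = 0.0153). Fitted on the 2 compared groups alone, Igfbp4 (0.0512), Tcf7 (0.0598) and Lef1 (0.0932) missed the threshold, and Dapl1 missed it after quantile normalization (0.0549).

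In CD28-deficient cells 2 genes were called lower in pTreg than in Tconv, where 1.05% of all tested genes were. Igfbp4 was at 75.9, 71.5 and 73.1 FPKM in pTreg, a narrow range far under the 167 to 208 of Tconv (-1.37 ± 0.35, adjusted p = 0.0276). Lef1 was at 42.6, 64.8 and 65.9 in pTreg and at 116, 177 and 130.1 in Tconv (-1.28 ± 0.29, adjusted p = 0.0135). Tcf7 (-0.77 ± 0.22, adjusted p = 0.0531), Dapl1 (-1.75 ± 0.53, adjusted p = 0.0696), Il7r (-1.04 ± 0.33, adjusted p = 0.0844), Satb1 (-0.75 ± 0.32, adjusted p = 0.245), S1pr1 (-0.26 ± 0.23, adjusted p = 0.699), Bach2 (-0.11 ± 0.33, adjusted p = 0.959) and Klf2 (0.11 ± 0.20, adjusted p = 0.905) did not pass. Klf2 was the 1 member with a Treg mean above that of Tconv in any Treg against Tconv comparison, and its difference was -0.11 after quantile normalization. Of the 9 genes, 6 had groups that did not overlap, against 30.1% of tested genes. With the replicate block Il7r (adjusted p = 0.00946), Tcf7 (0.0172) and Satb1 (0.0371) passed too. Leaving out CD28-deficient tTreg replicate 3 and wild-type pTreg replicate 1, which are in neither group but widen the common estimate of spread, Tcf7 (adjusted p = 0.00257), Il7r (0.00876) and Dapl1 (0.00992) passed at unchanged differences.

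Both calls of that comparison were lost in some fits with 1 library left out. Igfbp4 lost its call without pTreg replicate 1, 2 or 3 (adjusted p = 0.0708, 0.0864 and 0.0873) and without Tconv replicate 1 or 2 (0.111 and 0.0965). Its difference in those fits was -1.31 to -1.39, beside -1.37 with all libraries. Lef1 lost its call without pTreg replicate 1 (-1.08, adjusted p = 0.0771) or Tconv replicate 2 (-1.10, adjusted p = 0.0814), beside -1.28 with all libraries. The median of the 9 genes was -0.77, beside 0.14 over all tested genes, or -0.02 after quantile normalization.

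**Figure D3:**
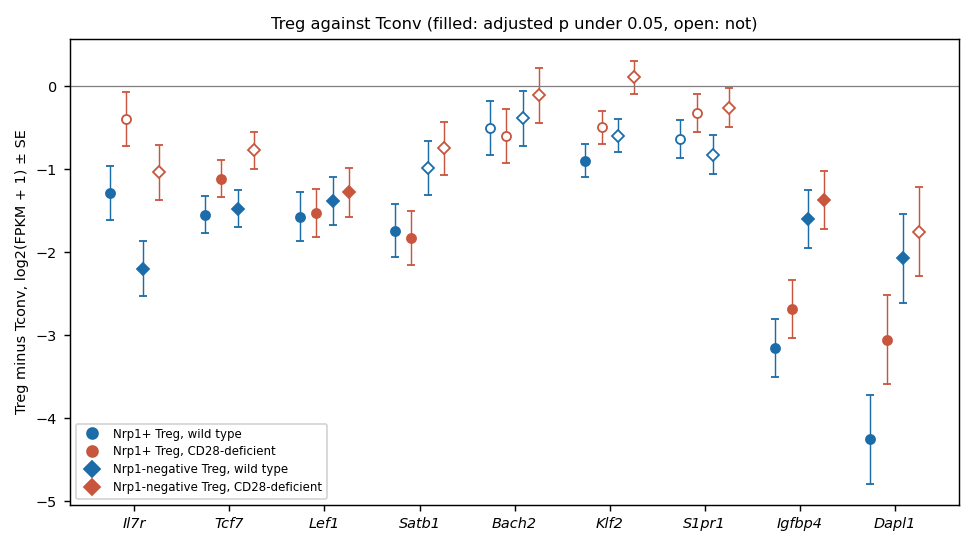
Difference on the log2(FPKM + 1) scale ± SE between each Treg subset and Tconv of the same genotype for the 9 genes, from the limma fit on 18 libraries, circles for tTreg, diamonds for pTreg, filled where the adjusted p was under 0.05. Values below 0 are lower in Treg, with Dapl1 and Igfbp4 lowest in tTreg (-4.26 and -3.16 in wild type). Bach2, S1pr1 and Klf2 lie nearest to 0 apart from CD28-deficient tTreg, where Il7r at -0.40 lies nearer than Klf2 and Bach2.

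Within Treg, Dapl1 and Igfbp4 were lower in the Nrp1+ subset. In wild-type cells the 6.55, 4.66 and 1.5 FPKM of Dapl1 in tTreg lay below the 14.3 to 29.2 of pTreg, a difference of -2.18 ± 0.53 (adjusted p = 0.023). Igfbp4, at 32.1 to 46.8 in tTreg and 65.9 to 148 in pTreg, differed by -1.56 ± 0.35 (adjusted p = 0.013). These were the 2 genes called lower, where 0.489% of all tested genes were. Il7r ran the other way without passing: 49.9, 63.0 and 69.6 FPKM in tTreg against 15.3, 41.5 and 48.6 in pTreg, a difference of 0.91 ± 0.33 (adjusted p = 0.165) between groups that did not overlap. Of the 9 genes, 3 had no overlap, against 14.6% of tested genes.

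The replicate block brought Il7r (adjusted p = 0.021) and Satb1 (-0.75 ± 0.32 without the block, adjusted p = 0.283 without and 0.0357 with it) past the threshold in wild-type cells. Without CD28-deficient tTreg replicate 3 and wild-type pTreg replicate 1, Il7r differed by 0.42 (adjusted p = 0.555), less than the 0.91 with all libraries. In that fit Satb1 differed by -1.10 (adjusted p = 0.0289), Igfbp4 by -1.92 (adjusted p = 4.40e-05) and Dapl1 by -2.43 (adjusted p = 0.00585). Klf2 differed by -0.30 ± 0.20 (adjusted p = 0.544). Each of the 2 calls was lost in 4 of the 6 fits with 1 library left out. For Igfbp4 the adjusted p then was 0.0595 and 0.0603 without pTreg replicates 2 and 3 and 0.0501 and 0.0725 without tTreg replicates 1 and 3. For Dapl1 it was 0.0845 and 0.0614 without pTreg replicates 2 and 3 and 0.0509 and 0.163 without tTreg replicates 2 and 3. The members' median was -0.19 and that of all tested genes 0.19, or -0.01 after quantile normalization.

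In CD28-deficient Treg, Igfbp4 alone was called lower in tTreg (-1.31 ± 0.35, adjusted p = 0.0447), where 0.946% of all tested genes were called lower. Its values were 19.2, 20.9 and 60.0 FPKM in tTreg and 71.5 to 75.9 in pTreg. Satb1 was at 27.4, 36.0 and 60.4 in tTreg and at 61.2, 98.9 and 96.4 in pTreg, and Klf2 at 164, 159 and 167 against 279.6, 249.8 and 219.7. Groups did not overlap for Satb1 (-1.08 ± 0.32, adjusted p = 0.0868) or Klf2 (-0.61 ± 0.20, adjusted p = 0.138), and with the replicate block these passed (adjusted p = 0.00472 and 0.0438). Il7r (0.64 ± 0.33, adjusted p = 0.434) and Bach2 (-0.49 ± 0.33, adjusted p = 0.608) also had groups apart, Dapl1 (-1.30 ± 0.53, adjusted p = 0.278) and Tcf7 (-0.34 ± 0.22, adjusted p = 0.589) did not. Of the 9 genes, 5 had no overlap, against 33.3% of tested genes.

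tTreg replicate 3 bears on this comparison directly. Without it and wild-type pTreg replicate 1, Dapl1 differed by -2.06 (adjusted p = 0.0118) and Satb1 by -1.38 (adjusted p = 0.00657), and Igfbp4, at -1.82, stayed called (adjusted p = 4.55e-05). Without tTreg replicate 3 alone, Dapl1 (adjusted p = 0.013) and Satb1 (adjusted p = 0.029) passed too. Fitted on the compared groups alone, Igfbp4 missed the threshold (adjusted p = 0.0915). In that fit Il7r, higher in tTreg (0.64, adjusted p = 0.0408), and Klf2, lower in tTreg (-0.61, adjusted p = 0.0168), passed. The Igfbp4 call was lost on leaving out any other of the 6 libraries, with an adjusted p of 0.265 and 0.247 without tTreg replicates 1 and 2 and of 0.145, 0.123 and 0.118 without pTreg replicates 1, 2 and 3.

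Between genotypes no member passed in any population. By limma, 0.204% of all tested genes were called in either direction in tTreg, 0.204% in pTreg and 0.791% in Tconv. At an unadjusted p under 0.05, 1 member was found in tTreg (Il7r), 2 in pTreg (Il7r and Tcf7) and 1 in Tconv (Igfbp4), among 469, 544 and 1185 of all tested genes. The median difference of the members was 0.07 in tTreg, 0.37 in pTreg and -0.09 in Tconv, beside -0.05, 0.19 and -0.16 over all tested genes. After quantile normalization those all-gene medians were 0.0066 in tTreg, 0.022 in pTreg and -0.002 in Tconv. The comparisons within one population share no library with those in another.

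Among the 9 genes Il7r had the largest difference by CD28 in pTreg. There it was at 66.9, 95.4 and 86.7 FPKM in CD28-deficient and at 15.3, 41.5 and 48.6 in wild-type libraries. In tTreg it was at 117, 138 and 133 in CD28-deficient and at 49.9, 63.0 and 69.6 in wild-type libraries. In both Treg subsets every CD28-deficient library lay above every wild-type library, where 6.43% of tested genes in pTreg and 17.8% in tTreg had no overlap. The Il7r means in pTreg and tTreg were 2.36 and 2.12 times those of wild type. The difference was 1.35 ± 0.33 in pTreg (95% confidence interval 0.65 to 2.05, adjusted p = 0.207) and 1.08 ± 0.33 in tTreg (0.39 to 1.78, adjusted p = 0.477). In Tconv, at 148, 229 and 145 against 109.8, 169.6 and 176, the genotypes overlapped (0.19 ± 0.33, interval -0.51 to 0.89, adjusted p = 0.915).

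By rank of unadjusted p, Il7r stood at place 49 of 12265 in pTreg and place 119 in tTreg. Without CD28-deficient tTreg replicate 3 and wild-type pTreg replicate 1 the Il7r difference was 0.86 ± 0.25 in pTreg (adjusted p = 0.381) and 1.06 ± 0.25 in tTreg (adjusted p = 0.213). After quantile normalization it was 1.13 ± 0.27 in pTreg (adjusted p = 0.0971) and 1.21 ± 0.27 in tTreg (adjusted p = 0.102). The CD28-deficient tTreg mean of 129 ± 10.8 FPKM reached 74.3% of the CD28-deficient Tconv mean of 174 ± 47.5, where in wild type 60.8 ± 10.0 was 40.1% of 152 ± 36.5 (SD, n = 3 each).

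Igfbp4 ran the other way. In Tconv it was at 208, 202 and 167 FPKM in CD28-deficient and at 388, 314 and 309.8 in wild-type libraries, which did not overlap. CD28-deficient Tconv held 0.57 times the wild-type mean. The difference of -0.81 ± 0.35 (interval -1.55 to -0.06) had an adjusted p of 0.48. In pTreg the values were 75.9, 71.5 and 73.1 against 65.9, 148 and 136, and in tTreg 19.2, 20.9 and 60.0 against 33.0, 46.8 and 32.1. In each Treg subset 1 library made the genotypes overlap, wild-type pTreg replicate 1 as the low one and CD28-deficient tTreg replicate 3 as the high one, both of which stood apart for other genes. With them the difference was -0.58 ± 0.35 in pTreg (adjusted p = 0.77) and -0.33 ± 0.35 in tTreg (adjusted p = 1).

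Leaving out those 2 libraries, Igfbp4 was lower with CD28 deficiency in pTreg (-0.94 ± 0.16, adjusted p = 0.0313) and in Tconv (-0.81 ± 0.15, adjusted p = 0.0156), and missed the threshold in tTreg (-0.84 ± 0.16, adjusted p = 0.0985). The Tconv libraries are the same in both fits, and there only the SE fell. Leaving out also CD28-deficient Tconv replicate 3 and wild-type Tconv replicate 1, it passed in pTreg (adjusted p = 0.00997) and tTreg (adjusted p = 0.0345) and not in Tconv (-0.60 ± 0.15, adjusted p = 0.0816). The 2 libraries were named with earlier results of these data known, so the calls without them are not independent support.

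**Figure D4:**
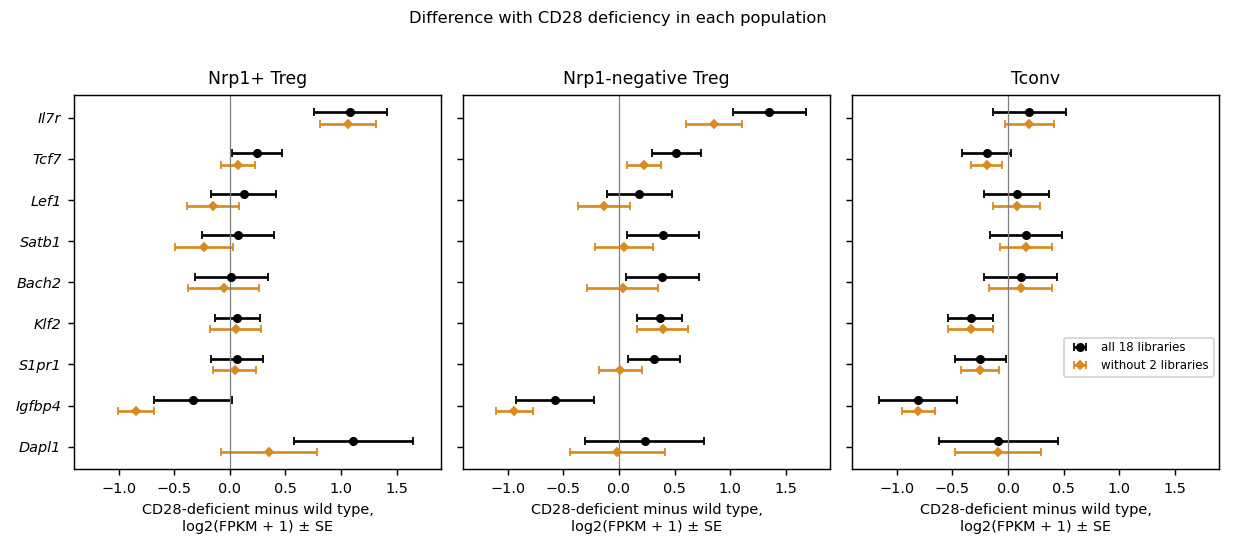
CD28-deficient minus wild type on the log2(FPKM + 1) scale ± SE for the 9 genes in tTreg, pTreg and Tconv, from the limma fit on all 18 libraries (black) and without CD28-deficient tTreg replicate 3 and wild-type pTreg replicate 1 (orange); tTreg is headed Nrp1+ Treg and pTreg Nrp1-negative Treg. Il7r lies at 1.08 and 1.35 in the Treg subsets, Igfbp4 moves to -0.84 and -0.94 there without the 2 libraries, and Dapl1 in tTreg moves from 1.11 to 0.35.

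Il7r and Igfbp4 set against each other separated the genotypes in every population, a ratio chosen after the values were seen and given as a description. Il7r alone already had no overlap between genotypes in tTreg and pTreg, and Igfbp4 alone in Tconv, so the ratio adds no independent support. The share of other gene pairs that separate the genotypes was not computed. The FPKM of Il7r divided by that of Igfbp4 was 1.51, 1.35 and 2.17 in wild-type and 6.09, 6.59 and 2.21 in CD28-deficient tTreg. It was 0.233, 0.28 and 0.358 against 0.882, 1.34 and 1.18 in pTreg. In Tconv it was 0.283, 0.54 and 0.568 against 0.71, 1.13 and 0.865. A ratio within a library does not move with that library's scale, and in each population the lowest CD28-deficient library lay above the highest wild-type one, by a narrow margin in tTreg, where replicate 3 was at 2.21 and wild-type replicate 3 at 2.17.

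**Figure D5:**
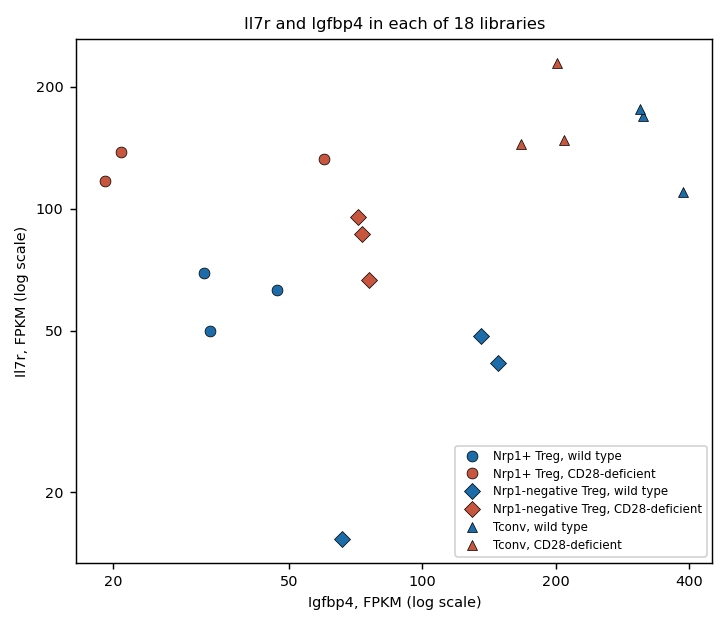
Il7r against Igfbp4 in each of the 18 libraries, both in FPKM on log axes, with 1 point per library, colour for genotype and shape for population. Among circles (tTreg) and diamonds (pTreg) every CD28-deficient point lies higher than every wild-type point, and CD28-deficient points lie further left apart from tTreg replicate 3, at 60.0 FPKM of Igfbp4, and wild-type pTreg replicate 1, at 65.9.

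Dapl1 in tTreg was at 3.73, 6.74 and 28.4 FPKM in CD28-deficient and at 6.55, 4.66 and 1.5 in wild-type libraries. The mean was 3.06 times that of wild type, the difference 1.11 ± 0.53 (adjusted p = 1), and replicate 3, the library with Tconv transcripts, was the high one. Without that library and wild-type pTreg replicate 1 the difference was 0.35 ± 0.43. In pTreg Dapl1 was at 20.6, 33.0 and 21.0 against 14.3, 29.2 and 20.6, and in Tconv at 86.5, 102 and 67.6 against 132, 86.3 and 63.2, with overlapping genotypes in either.

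None of the transcription factors passed between genotypes. Tcf7 was at 231, 267 and 355 FPKM in CD28-deficient and 228, 245 and 235 in wild-type tTreg (0.24 ± 0.22, interval -0.23 to 0.72, adjusted p = 1). In pTreg it was at 289, 383 and 405 against 167, 314 and 292 (0.52 ± 0.22, interval 0.04 to 0.99, adjusted p = 0.77). Without the 2 libraries these differences were 0.07 ± 0.15 and 0.23 ± 0.15. In Tconv Tcf7 was at 579, 697 and 554 against 701, 677 and 702. Lef1 overlapped between genotypes in all 3 populations, with group means of 49.5 ± 17.97 against 43.7 ± 3.94 in tTreg, 57.8 ± 13.1 against 52.1 ± 17.97 in pTreg and 141 ± 31.8 against 134 ± 30.3 in Tconv (SD, n = 3 each). Its difference was 0.12 ± 0.29 in tTreg and 0.18 ± 0.29 in pTreg (adjusted p = 1 and 0.793), and -0.15 and -0.13 without the 2 libraries.

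Satb1 and Bach2 in pTreg differed by 0.40 ± 0.32 and 0.39 ± 0.33 (adjusted p = 0.77 each), with overlapping genotypes. Without the 2 libraries these differences were 0.044 and 0.034. Bach2 was the member with the lowest levels among the transcription factors, at 7.57 to 25.2 FPKM over all libraries, and its means in tTreg were nearly equal, 12.2 ± 1.83 in CD28-deficient and 12.1 ± 2.44 in wild type. Satb1 had means of 41.3 ± 17.1 against 37.3 ± 4.67 in tTreg and 143 ± 23.7 against 130.3 ± 38.0 in Tconv.

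Klf2 and its target S1pr1 were the members of exit from lymphoid tissue. Klf2 in pTreg was at 279.6, 249.8 and 219.7 FPKM in CD28-deficient and at 199, 196 and 183 in wild-type libraries, which did not overlap (0.37 ± 0.20, interval -0.06 to 0.79, adjusted p = 0.77). It was the second member without overlap in pTreg, against 6.43% of tested genes, and it was not low in wild-type pTreg replicate 1. In Tconv it was at 238, 240.7 and 214 against 427, 240.0 and 240.7 (-0.33 ± 0.20, adjusted p = 0.586), where wild-type replicate 1 was the high one. S1pr1 in pTreg was at 76.0, 102 and 104 against 48.5, 103 and 82.2 (0.32 ± 0.23, adjusted p = 0.77), and at 0.01 ± 0.19 without the 2 libraries. In tTreg its means were 88.8 ± 3.41 and 85.4 ± 13.4. One member had no overlap between genotypes in tTreg (Il7r, against 17.8% of tested genes) and 1 in Tconv (Igfbp4, against 18.7%).

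Whether the CD28 differences themselves depended on the population was tested directly, and no member passed. Called genes were 0.0245% of all tested for pTreg against tTreg, 0.122% for tTreg against Tconv and 0.0734% for pTreg against Tconv. At an unadjusted p under 0.05 there were 0, 0 and 3 members, among 180, 267 and 1073 tested genes. The 3 were Il7r (1.16 ± 0.47), Tcf7 (0.71 ± 0.31) and Klf2 (0.70 ± 0.28), all with a higher difference in pTreg than in Tconv and an adjusted p of 0.467. S1pr1 was at 0.57 ± 0.33 there (adjusted p = 0.467). The median over all tested genes for that contrast was 0.36, and 0.02 after quantile normalization, when Il7r was at 0.64 ± 0.38 and Klf2 at 0.30 ± 0.22. Without CD28-deficient tTreg replicate 3 and wild-type pTreg replicate 1 this difference of CD28 effects was 0.66 for Il7r, 0.42 for Tcf7, 0.73 for Klf2 and 0.26 for S1pr1, and none passed. For Il7r the difference was 0.89 ± 0.47 between tTreg and Tconv and 0.27 ± 0.47 between the Treg subsets.

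Other genes of naive T cells were read from a list of 32, of which 31 were tested, chosen like the members with earlier results known. None was called between genotypes in any population. In wild-type tTreg against Tconv 12 were called lower and 1 higher, where 4.26% of all tested genes were called lower, and in CD28-deficient cells 11 lower, where 2.47% were. Largest in wild type were Arl4c (-2.19 ± 0.27), Atp1b1 (-2.16 ± 0.26), Ly6c1 (-1.83 ± 0.25) and Rapgef4 (-1.83 ± 0.34), and the 1 higher gene was Id3 (0.66 ± 0.21), which encodes an inhibitor of E proteins. In pTreg against Tconv 7 were called lower in wild type and 2 in CD28-deficient cells, beside 2.44% and 1.05% of all tested genes. Between the Treg subsets 2 were called lower in tTreg in wild type and 6 in CD28-deficient cells, beside 0.489% and 0.946% of all tested genes. Among them Ly6c1, a surface protein of the Ly6 family, was lower in tTreg by -1.37 ± 0.25 in wild type and by -2.07 ± 0.25 in CD28-deficient cells. The median of the list in wild-type tTreg against Tconv was -0.48, beside -0.02 over all tested genes. Of 18 quiescence regulators, none was called between genotypes or between pTreg and Tconv. Between tTreg and Tconv only Pik3ip1, also in the list of 32, was called, lower in either genotype. All tested genes called lower there were 4.26% and 2.47%. The median of the 18 was -0.12 in wild-type and 0.02 in CD28-deficient tTreg against Tconv, beside -0.02 and 0.09 over all tested genes.

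Of 12 genes of IL-7 receptor signalling none was called between genotypes. In tTreg against Tconv 4 were called higher and none lower in either genotype, where 8.33% of all tested genes were called higher in wild-type and 9.63% in CD28-deficient cells. In wild type these were Cish (3.12 ± 0.35), a feedback inhibitor of cytokine signals, Gfi1 (1.60 ± 0.25), a repressor known to act on Il7r, Socs1 (1.07 ± 0.29) and Jak3 (0.62 ± 0.19). In pTreg against Tconv 2 were called higher in wild type, Cish and Gfi1, and 5 in CD28-deficient cells, where 2.05% and 4.8% of all tested genes were called higher.

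Among 9 partners and opponents of BACH2, Irf4 (1.70 ± 0.29), Prdm1 (0.93 ± 0.22) and Batf (0.87 ± 0.23), which encode factors of effector cells, were called higher and Nfe2l2 lower in wild-type tTreg than in Tconv, and none was called between genotypes. In wild-type tTreg against Tconv 8.33% of all tested genes were called higher and 4.26% lower, which is also the background of the TCF, LEF and KLF counts. Of 12 tested partners of TCF and LEF only Jup, at a mean of 0.156 FPKM in wild-type tTreg, was called between tTreg and Tconv, lower by -0.87 ± 0.12 in wild type. Of 9 tested KLF family genes Klf9 (1.10 ± 0.15) and Klf10 (0.62 ± 0.18) were called higher and Klf13 (-0.69 ± 0.18) lower in wild-type tTreg than in Tconv. Of 8 tested genes of sphingosine 1-phosphate sensing and turnover, only the receptor S1pr2 was called in CD28-deficient tTreg against Tconv. It was higher by 1.13 ± 0.20, where 9.63% of all tested genes were called higher. S1pr2 was also called higher in CD28-deficient pTreg than in Tconv, where 4.8% were. S1pr1 was called in neither comparison. Of 18 genes of activated and effector memory cells 8 were called lower with CD28 deficiency in Tconv, 2 (Ccl5 and Klrg1) in pTreg and none in tTreg, where 0.791%, 0.179% and 0.171% of all tested genes were called lower.

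Over the 18 libraries the levels of the members went together to different degrees. Pearson's r of log2(FPKM + 1) was above 0 for all 36 pairs, with a median of 0.72, from 0.15 for Bach2 with Klf2 to 0.96 for Tcf7 with Lef1. Igfbp4 and Dapl1 had an r of 0.91. The low end depended on the libraries that stood apart. Without CD28-deficient tTreg and Tconv replicates 3 and wild-type pTreg and Tconv replicates 1, Bach2 with Klf2 had an r of 0.55. The lowest pair then was Il7r with Igfbp4, at 0.35, and Tcf7 with Lef1 had 0.98. These are descriptions over libraries that share 6 groups, library scale and depth, not tests. By the same measure the gene most like Lef1 was Tgfbr3 (r = 0.98). Pdk1 was first for Satb1 (0.99), Cep68 for Bach2 (0.98), Slc16a5 for Dapl1 (0.96), Stim1 for S1pr1 (0.95), Prf1 for Igfbp4 (0.95), Sit1 for Klf2 (0.94) and Spata6 for Il7r (0.92). Slc16a5 is 1 of the 3 Tconv markers used above, and the value for Il7r was the lowest of those given here.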

How the data were processed

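Total RNA of sorted spleen T cells was sequenced as single reads of 50 nt. The authors aligned reads with TopHat2 2.0.11 to GRCm38 and deposited FPKM values per gene made with Cufflinks, 1 file for each of 18 libraries, per the submitters' processing notes. No counts were used, so depth and its counting error are unknown, and FPKM is relative, so 1 abundant transcript lowers all others in a library.

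Groups came from the titles, 6 groups with 3 libraries each. Differences were fitted on log2(FPKM + 1) with limma 3.58.1 in R 4.3.3, with 1 mean per group, a variance trend and Benjamini-Hochberg adjustment over all 12265 genes that reached an FPKM of 1 in at least 3 libraries. A gene was called at an adjusted p under 0.05. The fit was also run on simulated data with independent noise for each gene, and the outcome is not reported here. That simulation held no shifts of library scale and no mixed libraries, so it does not show how such libraries affect the calls. The 9 comparisons of 2 groups share groups, and 3 tests compared CD28 differences between populations.

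The members, gene lists and rules were chosen with earlier results of these data known. All 9 members were named whatever their p, from each other list at most 4 called genes per comparison with the largest change, and for each member the 3 genes most like it, of which the first is printed, except for Tcf7, where it is not reported here. Cd28, Foxp3 and Nrp1 served as checks. The markers Pdlim4, Ggt5 and Slc16a5 were chosen in earlier results.

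Replicate numbers in the titles were taken to pair libraries where same-numbered libraries deviated together (every r over 0.1), which held in 6 of the 9 comparisons. It did not hold for CD28 in tTreg, CD28 in pTreg or pTreg against Tconv in wild type. The pairing is a reading of the data, since the labels name no shared animal or day. The main fit used no pairing, also in those 6 comparisons, so the main calls and failures to pass come from an unpaired fit. Alternatives were a pseudocount of 0.1, no filter, no variance trend, only the compared groups, quantile normalization, a replicate block, leaving out the libraries that stood apart, and leaving out each library. The replicate block was fitted over all 6 groups at once, so it also ties together groups whose numbers do not pair. Gene positions are from GENCODE on GRCm38 and promoter windows from RefSeq on GRCm38.p6.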

Additional observations from a re-analysis of the deposited data

How the results depend on the processing

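No alternative turned the sign of a called difference: of 864 values for the 9 genes under 8 alternatives, 759 kept their sign and side of the threshold, 13 lost and 47 gained a call, and 45 values that were not called changed sign. The cause of the changes was not tested. Counts of the 9 genes called are listed where they moved by more than 1.5 times or to or from 0. Smaller moves, among them all those between tTreg and Tconv, are left out here. For CD28 in tTreg the count went from 0 to 1 with 4 libraries left out (CD28-deficient tTreg and Tconv replicates 3, wild-type pTreg and Tconv replicates 1). For CD28 in pTreg it went from 0 to 1 with the replicate block (Il7r, adjusted p = 0.0175, in a comparison whose numbers do not pair), and to 1 with CD28-deficient tTreg replicate 3 and wild-type pTreg replicate 1 left out and with the 4 left out. For CD28 in Tconv it went from 0 to 1 with the 2 left out. For tTreg against pTreg in wild type it was 2, but 1 with no filter, 4 with the replicate block and 0 to 2 leaving out 1 library. In CD28-deficient cells it was 1 (Igfbp4), but 0 with pseudocount 0.1 or no filter, and 2 with only the compared groups. Those 2 were Il7r and Klf2, without Igfbp4. The count was 3 with the replicate block or the 2 libraries left out, 5 with the 4 left out and 0 to 3 leaving out 1 library. For pTreg against Tconv in wild type it was 5, but 2 with only the compared groups and 3 to 6 leaving out 1 library. With the replicate block it was 8, in a comparison whose numbers do not pair. In CD28-deficient cells it was 2, but 1 with no filter, 5 with only the compared groups, quantile normalization, the replicate block or the 2 left out, 6 with the 4 left out and 0 to 2 leaving out 1 library.

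The Il7r difference by CD28 in Tconv ranged from -0.024 to 0.31 leaving out 1 library, with the lowest values, -0.024 and -0.021, without wild-type replicate 1 and without CD28-deficient replicate 2. The difference between the CD28 effects on Il7r in pTreg and tTreg was -0.073 after quantile normalization, -0.21 with the 2 or the 4 libraries left out, and -0.23 to 0.57 leaving out 1 library, lowest without wild-type pTreg replicate 1. For Igfbp4 it ranged from -0.61 to 0.27, highest without CD28-deficient tTreg replicate 3. The difference between the CD28 effects on Igfbp4 in tTreg and Tconv was -0.039 with the 2 and -0.24 with the 4 libraries left out, and -0.039 to 0.76 leaving out 1 library. The Lef1 difference by CD28 was -0.15 in tTreg and -0.13 in pTreg with the 2 or the 4 libraries left out, and ranged leaving out 1 library from -0.15 (without CD28-deficient tTreg replicate 3) to 0.30 in tTreg and from -0.13 (without wild-type pTreg replicate 1) to 0.39 in pTreg. Between CD28-deficient pTreg and Tconv, Klf2 was at -0.11 after quantile normalization, and Bach2 ranged from -0.28 to 0.087 leaving out 1 library, with 0.045 without pTreg replicate 1 and the highest value without Tconv replicate 2.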
